A study of Mus musculus with 16 samples.

Results

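Leucine, isoleucine and valine are the branched-chain amino acids, and 10 genes for enzymes and regulators of their breakdown were followed in mouse mammary adipose tissue. They were taken by name (Bcat2, Bckdha, Bckdhb, Dbt, Ppm1k, Mccc1, Mccc2, Ivd, Acadsb and Hibadh), and all 10 were found among the 23179 genes listed and among the 21218 that passed the filter on low values. Total RNA of the 9th mammary fat pad, on the side opposite the tumor, was sequenced in 16 libraries, 4 in each of 4 groups. All animals were wild-type female C57BL/6N mice (C57BL/6NCrl in the methods), and in each of them E0771 cells, a mouse mammary cancer line, had been placed in the 4th mammary fat pad 22 weeks after the diets were assigned. CON-LFD mice ate a low-fat control diet throughout and had a sham operation. DIO-HFD mice were made obese on a 60% high-fat diet, stayed on it and had a sham operation. DIO-LFD mice were made obese in the same way, had a sham operation and were changed to the low-fat diet. DIO-VSG mice were made obese and had a vertical sleeve gastrectomy, which removes much of the stomach, followed by the low-fat diet. Surgery and diet were therefore changed together in DIO-VSG, and no group had the gastrectomy on the high-fat diet. No tumor-free mice were among the libraries, and whole tissue was used, so adipocytes, immune cells, epithelium and muscle all contributed RNA.

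The first steps of branched-chain amino acid breakdown are shared. The mitochondrial transaminase Bcat2 moves the amino group to a keto acid acceptor, and the branched-chain keto acid dehydrogenase complex (Bckdha and Bckdhb, its decarboxylase subunits, and Dbt, its acyltransferase core) then removes a carboxyl group in the step that commits the skeleton to oxidation. A kinase, Bckdk, phosphorylates and inactivates the complex, and the phosphatase Ppm1k reactivates it. After that step the 3 routes part. Ivd and then the carboxylase made of Mccc1 and Mccc2 act on the leucine skeleton, Acadsb acts on that of isoleucine, and Hibadh acts on a valine intermediate. White adipose tissue is known as a site where these amino acids supply carbon for lipid synthesis, and obesity is known to be accompanied by raised branched-chain amino acids in blood.

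The libraries held between 46907377 and 57610899 reads assigned to genes, so counting error was small beside the differences between mice. Values are normalized counts, that is, reads divided by the library's size factor. Differences are given on the log2 scale with the standard error (SE) of 1 limma fit over the 16 libraries, two-sided, with P values adjusted over all 21218 genes by the Benjamini-Hochberg procedure. Lymphoid RNA differed widely between libraries: the summed normalized count of 7 B cell markers ran from 237 to 62143 in CON-LFD, from 958 to 82708 in DIO-HFD, from 14743 to 33676 in DIO-LFD and from 56716 to 66302 in DIO-VSG. None of 12 adipocyte markers was at 3 or fewer counts in any library, and their summed count was lowest in DIO-HFD replicate 1 (449826) and highest in DIO-LFD replicate 1 (1788460). These 2 libraries also held the lowest or highest values of most members, and values without them are given where they moved a comparison most.

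Obesity was examined first, by comparing DIO-HFD with CON-LFD. The fitted value of all 10 members was lower in DIO-HFD, with a median of −0.58 on the log2 scale (a change of −33.0%) and a range from −0.97 (Mccc1) to −0.17 (Ppm1k), whereas the median of all genes tested was 0.02 and 47.3% of all genes were below 0. No member reached an adjusted P value of 0.05 in the limma fit (smallest 0.167), a threshold that 8 genes (0.0377%) passed. At an unadjusted P value below 0.05, 8 members were lower and 0 higher, where 2735 genes (12.9%) passed in either direction and 7.66% passed as lower. Of 12 adipocyte markers 11 were lower as well (median −0.50), 1 at an unadjusted P value below 0.05, and so were all 9 thermogenic adipocyte markers, 6 at that level. With a score of the 12 adipocyte markers as covariate the members' median was −0.26. In this bulk tissue, fewer adipocytes and less of these RNAs in each adipocyte cannot be told apart.

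Members of the leucine arm are given first. Mccc1, the biotin-carrying subunit of methylcrotonyl-CoA carboxylase, was at 7238, 7595, 4426 and 6137 normalized counts in CON-LFD replicates 1 to 4 and at 2316, 3107, 4000.0 and 3525 in DIO-HFD. Each DIO-HFD library was below each CON-LFD library, and the fitted difference was −0.97 (SE 0.23, limma adjusted P = 0.167). Ivd, isovaleryl-CoA dehydrogenase, the first enzyme after the shared steps for leucine, was at 10248, 11086, 7852 and 9606 in CON-LFD and at 4459, 6355, 6833 and 7554 in DIO-HFD. Its groups did not overlap either, with a difference of −0.64 (SE 0.15, limma adjusted P = 0.167). The carboxylase's other subunit, Mccc2, was at 3435, 4191, 2566 and 3590.3 in CON-LFD and at 1286, 2619, 2820.2 and 2397 in DIO-HFD. For Mccc2 the groups overlapped, since CON-LFD replicate 3 lay below 2 DIO-HFD libraries (difference −0.64, SE 0.25, limma adjusted P = 0.306).

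The sequences upstream of these 3 leucine genes are shown because they have in common a feature that most promoters lack. Windows from 250 bases before to 50 bases after the start site were taken from RefSeq on GRCm38.p6, where 9 of the 10 members had an entry; Dbt had none. The windows of Bckdha and Hibadh reached only 30 and 161 bases upstream of the GENCODE start. The CCAAT box (CCAAT, or ATTGG on the opposite strand), the sequence bound by the factor NF-Y, was present in 6 of 9 member windows. It was present in 37.4% of 32851 windows of RefSeq entries, from which 1 chromosome was left out. Ivd held 4 matches, Mccc1 held 3 and Mccc2 held 3, and 3.37% of all windows held 3 or more. Outside the leucine arm, Bckdhb and Ppm1k held 2 each and Hibadh held 1. Of the 3 matches in Mccc2, 2 are the overlapping stretch CCAATTGG read on both strands, and 1 of the 4 in Ivd lies beyond the printed bases. These letters were chosen after the sequences of these same genes had been read. Of 5 other motifs searched on both strands, the GC box CCCGCCC was in 5 of 9 member windows (25.6% of all windows), the E-box CACGTG in 1, that of Mccc2 (7.15%), and the letters TCAAGGTCA of estrogen-related receptors (0.423%), the palindromic NRF1 motif (0.971%) and the direct repeat bound by PPAR dimers (0.0396%) in 0. A match describes letters in this window and is not a measured binding site. Capitals below mark CCAAT or ATTGG, and also CCCGCCC in Mccc1 and CACGTG in Mccc2, where it begins 9 bases before the RefSeq start. Each sequence is printed 5′ to 3′ on the gene's strand and ends at the more upstream of the RefSeq and GENCODE starts: Mccc1 at chr3:36000679-36000928 (minus strand), Mccc2 at chr13:100015640-100015889 (minus strand) and Ivd at chr2:118861744-118861953 (plus strand).
Mccc1: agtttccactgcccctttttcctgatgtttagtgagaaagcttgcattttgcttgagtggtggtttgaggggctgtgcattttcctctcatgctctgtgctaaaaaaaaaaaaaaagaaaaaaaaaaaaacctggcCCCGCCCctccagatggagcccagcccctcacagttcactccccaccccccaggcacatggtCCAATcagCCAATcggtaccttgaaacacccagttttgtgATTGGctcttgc
Mccc2: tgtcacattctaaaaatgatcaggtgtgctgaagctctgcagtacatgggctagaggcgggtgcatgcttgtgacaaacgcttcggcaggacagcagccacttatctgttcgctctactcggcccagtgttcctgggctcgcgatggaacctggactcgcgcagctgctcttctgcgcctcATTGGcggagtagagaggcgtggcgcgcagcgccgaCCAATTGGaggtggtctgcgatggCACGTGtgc
Ivd: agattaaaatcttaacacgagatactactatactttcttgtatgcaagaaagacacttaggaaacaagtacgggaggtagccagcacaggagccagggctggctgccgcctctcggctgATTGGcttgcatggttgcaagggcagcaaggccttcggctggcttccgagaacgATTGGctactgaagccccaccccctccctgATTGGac

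Bcat2, the transaminase, was at 2907, 2572, 2169 and 2865 normalized counts in CON-LFD and at 1203, 1494, 1824 and 1946 in DIO-HFD. The groups did not overlap and the fitted difference was −0.72 (SE 0.20, limma adjusted P = 0.215). Bcat2, Mccc1 and Ivd were the 3 members with no overlap, a state found as lower in 3% of all genes. The dehydrogenase complex came next, at −0.59 for Bckdha (SE 0.25), −0.54 for Bckdhb (SE 0.24) and −0.45 for Dbt (SE 0.27), with limma adjusted P values of 0.338, 0.362 and 0.497. Bckdha was at 6971, 11053, 4785 and 6513 in CON-LFD against 3012, 5258, 6200.3 and 4747 in DIO-HFD, so that its group difference leaned on CON-LFD replicate 2 and DIO-HFD replicate 1. Bckdhb was at 3159.6, 4237, 2387 and 3132 in CON-LFD and at 1361, 2809, 2506 and 2366 in DIO-HFD. Dbt was at 3089, 4124, 2822 and 3065 in CON-LFD and at 1599, 2493, 2981 and 2635 in DIO-HFD. In all 3 subunits the groups overlapped, and DIO-HFD replicate 1 was the lowest of the 16 libraries.

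Beyond the complex, Acadsb, the short/branched-chain acyl-CoA dehydrogenase of the isoleucine route, was at 9301, 10889, 7681 and 10927 in CON-LFD and at 3968, 8008, 8552 and 6541 in DIO-HFD (difference −0.56, SE 0.20, limma adjusted P = 0.271). Hibadh, 3-hydroxyisobutyrate dehydrogenase of the valine route, was at 8387, 11306, 6274 and 9099 in CON-LFD and at 3818, 6936, 8021 and 6136 in DIO-HFD (difference −0.51, SE 0.23, limma adjusted P = 0.359). Both had DIO-HFD replicate 1 as their lowest library and overlapping groups. Ppm1k, the phosphatase, was at 1094, 1409, 1961 and 1005 in CON-LFD and at 1561, 1029, 783 and 1512 in DIO-HFD. Its difference of −0.17 (SE 0.23, 95% interval from −0.66 to 0.32) was smaller than its spread between mice, and the library lowest for the other 9 members was not low for Ppm1k. Leaving out DIO-HFD replicate 1 moved the members' median to −0.35 and the number at an unadjusted P value below 0.05 from 8 to 4 (11.2% of genes). Leaving out CON-LFD replicate 2 also gave 4 (8.53% of genes), and leaving out CON-LFD replicate 1 gave 5 (9.13% of genes). Without CON-LFD replicate 3, Mccc1 (−1.13) and Ivd (−0.74) passed the adjusted threshold (limma adjusted P = 0.0494 and 0.05), as did 136 genes in all (0.644%). In that fit 8 members were at an unadjusted P value below 0.05 and the share of all genes was 19.7%.

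**Figure D1:**
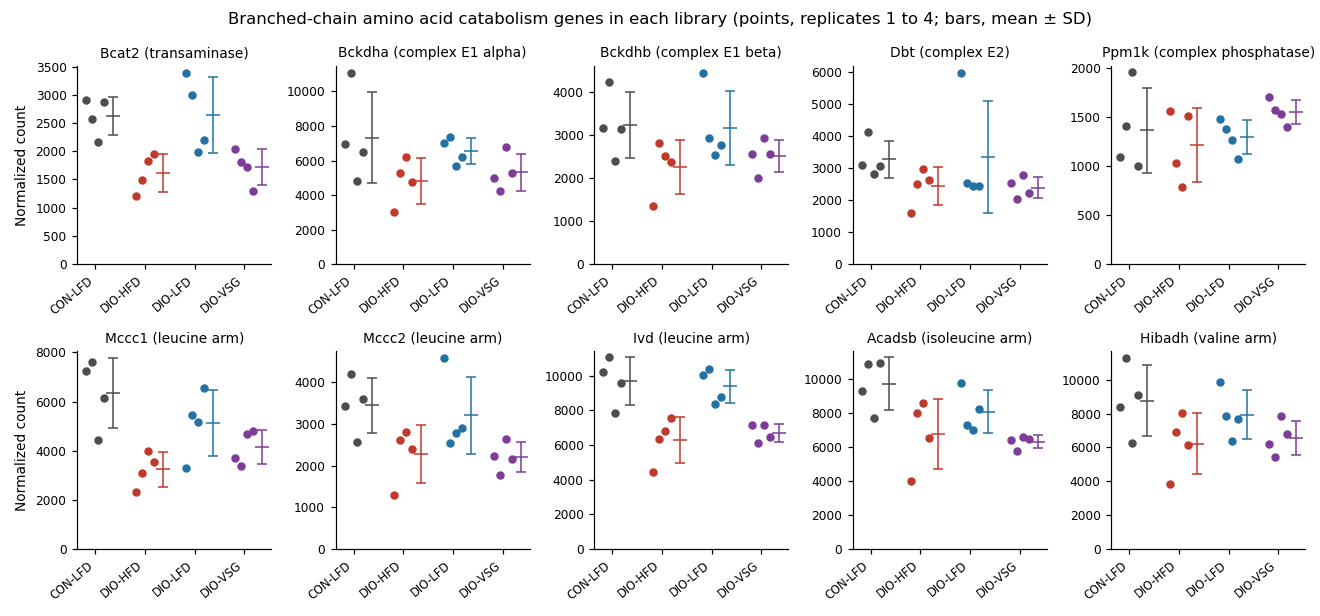
Normalized counts of the 10 genes (vertical axes, each from 0) in the 4 libraries of each group (points, replicates 1 to 4 from left to right), with the mean ± SD of each group as a bar. DIO-HFD replicate 1 is the lowest of the 16 libraries for 9 of the 10 genes, the exception being Ppm1k, and Dbt in DIO-LFD replicate 1 (5950.5) stands apart from the other 3 libraries of its group.

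Dietary weight loss was examined by comparing DIO-LFD with DIO-HFD, which shares its DIO-HFD libraries with the comparison above. All 10 members had a higher fitted value in DIO-LFD, with a median of 0.50 (a change of 41.2%) beside 0.01 for all genes, of which 48.4% were below 0. Of 12 adipocyte markers 10 were higher as well (median 0.44), 3 at an unadjusted P value below 0.05. With their score as covariate the members' median was 0.17. No member passed an adjusted P value of 0.05 in the limma fit (smallest 0.327), nor did any other gene (0 of 21218, 0%). At an unadjusted P value below 0.05, 1809 genes passed (8.53%), 5.37% as higher, and 3 members were higher: Bcat2, Mccc1 and Ivd. Bcat2 was at 3393, 3003, 1978 and 2191 in DIO-LFD, with each library above every DIO-HFD library (difference 0.70, SE 0.20, limma adjusted P = 0.424). Ivd was at 10042, 10387, 8393 and 8753, also with no overlap (difference 0.60, SE 0.15, limma adjusted P = 0.327). No overlap in the higher direction was found in 3.01% of all genes and in these 2 members. Mccc1 was at 3313, 5453, 5154 and 6565, where replicate 1 fell among the DIO-HFD values (difference 0.65, SE 0.23, limma adjusted P = 0.474).

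The remaining members had smaller or less even differences between DIO-LFD and DIO-HFD. Mccc2, at 4582, 2553, 2796 and 2910.4 in DIO-LFD, differed by 0.52 (SE 0.25), Bckdhb by 0.50 (SE 0.24) and Bckdha by 0.49 (SE 0.25), with limma adjusted P values between 0.594 and 0.633. Hibadh differed by 0.38 (SE 0.23), Acadsb by 0.30 (SE 0.20) and Ppm1k by 0.14 (SE 0.23). Dbt differed by 0.38 (SE 0.27), and this rested on 1 library: Dbt was at 5950.5 in DIO-LFD replicate 1 and at 2538, 2428 and 2445 in the other 3, and without that library the difference was 0.06. DIO-LFD replicate 1 was also the highest of the 16 libraries for Bcat2, Bckdhb and Mccc2, while it was the lowest of its group for Mccc1. Without DIO-HFD replicate 1 the members' median was 0.28, and Acadsb was at 0.06, Hibadh at 0.17 and Mccc2 at 0.26. With DIO-LFD replicate 1 and DIO-HFD replicate 1 both left out, the members' median between these groups was 0.16. The number of members at an unadjusted P value below 0.05 was 2 without DIO-HFD replicate 1, 5 without CON-LFD replicate 2 or DIO-HFD replicate 2, 6 without CON-LFD replicate 3 and 7 without DIO-HFD replicate 3, while the share of all genes was between 8.09% and 9.13% in these fits.

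DIO-VSG was compared with the same DIO-HFD libraries to examine surgical weight loss. The members' median difference was 0.11 (a change of 8.20%) beside 0.02 for all genes. No member reached an adjusted P value of 0.05 in the limma fit (smallest 0.416), nor did any gene (0%), and 0 members reached an unadjusted P value below 0.05, where 2794 genes did (13.2%). Fitted values ran from −0.04 for Acadsb, the 1 member below 0 (47.5% of all genes were), to 0.40 for Ppm1k (SE 0.23, 95% interval from −0.09 to 0.89, limma adjusted P = 0.416). Ivd was at 7151, 6105, 7155 and 6456 in DIO-VSG, within the range of DIO-HFD (difference 0.12, SE 0.15, 95% interval from −0.21 to 0.44). Bcat2, at 2041, 1817, 1726 and 1288, had 1 library above the highest DIO-HFD value (0.09, SE 0.20, 95% interval from −0.33 to 0.52). Mccc1 was at 3697, 3394, 4671 and 4814, 2 of them above every DIO-HFD library (0.37, SE 0.23, limma adjusted P = 0.440). The intervals allow differences of up to about the size seen in DIO-LFD for several members, so a lack of difference was not shown. Without DIO-HFD replicate 1 the median became −0.04 and the fitted values of 7 members turned from above to below 0 (Bcat2, Bckdha, Bckdhb, Dbt, Mccc2, Ivd and Hibadh, from −0.25 to −0.04). With a score of the B cell markers as covariate the members' median was 0.25.

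The weight-loss groups were then set against each other. In all, 9 members were lower in DIO-VSG than in DIO-LFD and Ppm1k was higher, with a median of −0.33 (a change of −20.6%) beside −0.02 for all genes, of which 52.7% were below 0. All 12 adipocyte markers were lower as well (median −0.42), 0 of them at an unadjusted P value below 0.05, and with their score as covariate the members' median was −0.07. No gene passed the adjusted threshold in this limma fit (0%), and the smallest adjusted P value of a member was 0.509. Unadjusted P values were below 0.05 in 2061 genes (9.71%), 5.41% as lower, and in 2 members, Ivd (−0.48, SE 0.15) and Bcat2 (−0.60, SE 0.20), both with a limma adjusted P value of 0.509. Ivd was the steadiest of the members here: its 4 DIO-VSG libraries lay between 6105 and 7155 and its 4 DIO-LFD libraries between 8393 and 10387. Acadsb was at 6423, 5725, 6588 and 6484 in DIO-VSG and at 9749, 7303, 6976 and 8240.0 in DIO-LFD, again with no overlap (−0.35, SE 0.20, limma adjusted P = 0.529). No overlap as lower was found in these 2 members and in 5.83% of all genes. Mccc2 was at 2230.1, 1784, 2642 and 2171 in DIO-VSG (−0.51, SE 0.25, limma adjusted P = 0.510) and overlapped with DIO-LFD. When only the 8 libraries of this comparison were fitted, Ivd passed the adjusted threshold (limma adjusted P = 0.0255), but 1533 genes then passed. Leaving out DIO-HFD replicate 1, which changes only the shared estimate of the spread here, gave 4 members at an unadjusted P value below 0.05 (13.3% of genes). Without DIO-LFD replicate 1 the members' median was −0.27, and Dbt moved from −0.38 to −0.06, Bckdhb from −0.31 to −0.14 and Mccc1 from −0.28 to −0.47.

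DIO-VSG and DIO-LFD were also each compared with CON-LFD. In DIO-VSG the members' median was −0.49 (all genes −0.02), 9 members were below 0 (52.2% of all genes), and 5 were lower at an unadjusted P value below 0.05, as were 7.55% of all genes; 17.8% of genes passed in either direction, and 0% after adjustment. These 5 were Bcat2 (−0.62), Mccc1 (−0.60), Mccc2 (−0.63), Ivd (−0.52) and Acadsb (−0.61), with SEs between 0.15 and 0.25 and a limma adjusted P value of 0.268 each. With the B cell marker score as covariate, 1 member was at an unadjusted P value below 0.05 (4.89% of genes) and the median was −0.19, and all 7 B cell markers were higher in DIO-VSG at an unadjusted P value below 0.05. All 12 adipocyte markers were lower in DIO-VSG (median −0.50), 0 of them at that level, and with their score as covariate the members' median was −0.21. No overlap as lower was found in Bcat2, Dbt, Ivd and Acadsb, and in 4.43% of all genes. Without CON-LFD replicate 3, Ivd passed the adjusted threshold (−0.62, limma adjusted P = 0.0482) among 878 genes (4.15%), and 7 members were at an unadjusted P value below 0.05 beside 30.5% of all genes. The count of 5 became 3 without CON-LFD replicate 2 (9.72% of genes) or without DIO-VSG replicate 2 (12.6% of genes). In DIO-LFD the members' median relative to CON-LFD was −0.09 (all genes 0.02). All 10 fitted values were below 0, from −0.32 (Mccc1) to −0.02 (Bcat2), as were 46.9% of all genes, and 0 members reached an unadjusted P value below 0.05, where 1328 genes did (6.26%). By the limma adjusted P value, 1 gene (0.00471%) passed and no member did (smallest 0.873). Ivd in DIO-LFD differed from CON-LFD by −0.04 (SE 0.15, 95% interval from −0.36 to 0.28), Bcat2 by −0.02 (95% interval from −0.44 to 0.41) and Mccc1 by −0.32 (95% interval from −0.81 to 0.17). This median was 0.0023 without CON-LFD replicate 2 and 0.11 with the B cell marker score as covariate, where 7 members were above 0, and it was −0.21 without CON-LFD replicate 3 and −0.18 without DIO-LFD replicate 1, where Dbt moved from −0.07 to −0.39. The comparisons with CON-LFD share its 4 libraries.

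**Figure D2:**
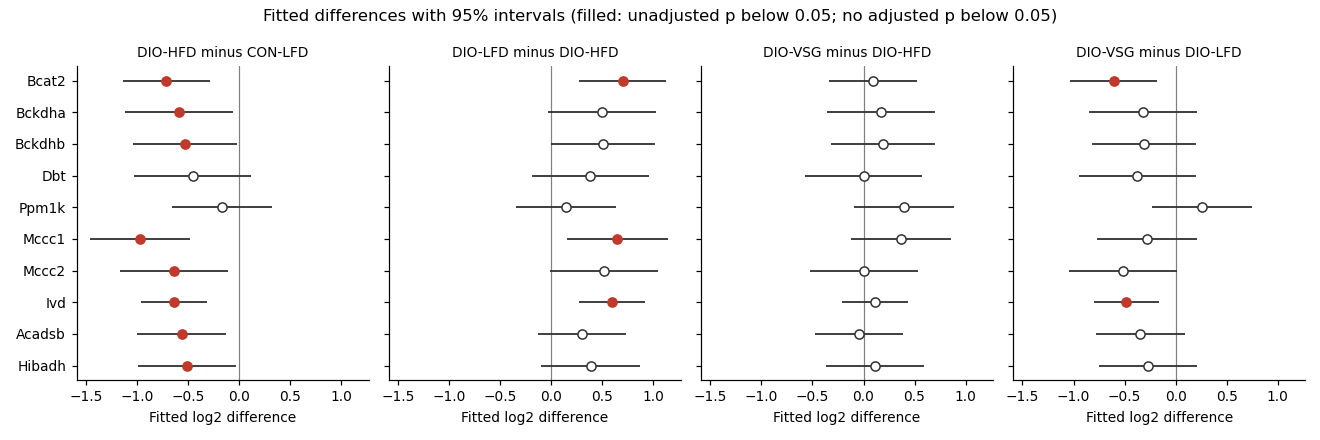
Fitted log2 differences of the 10 genes in 4 comparisons (horizontal axis, points, with 95% intervals as lines); filled points have an unadjusted P value below 0.05 and open points do not. Points lie left of 0 for all 10 genes in DIO-HFD minus CON-LFD, right of 0 for all 10 in DIO-LFD minus DIO-HFD, near 0 in DIO-VSG minus DIO-HFD except for Ppm1k and Mccc1, and left of 0 for 9 in DIO-VSG minus DIO-LFD.

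Levels of the members could be compared with each other only per length of transcript. Per kilobase of the principal transcript and averaged over the 16 libraries, Hibadh was highest at 4039 normalized counts (range over libraries 2092 to 6195), followed by Bckdha (3163), Ivd (2190.2), Mccc1 (1919.7), Bckdhb (1897), Mccc2 (1312), Acadsb (1268), Bcat2 (1214), Dbt (866) and Ppm1k (245). The ranges of every pair of neighbors in this order overlapped except the last, since Ppm1k ran from 141 to 353 and Dbt from 484 to 1803. The order depended on the transcript taken: over all annotated exons, which are much longer for Hibadh (10179 bases) and Mccc1 (10952 bases), these genes were at 724 and 430.3. All 10 are protein-coding genes in GENCODE on GRCm38. On the plus strand lie Bcat2 (chr7:45570153-45589711), Bckdhb (chr9:83925145-84124240), Dbt (chr3:116513070-116549981), Ivd (chr2:118861954-118882909) and Acadsb (chr7:131410601-131448944). On the minus strand lie Bckdha (chr7:25629946-25658981), Ppm1k (chr6:57506502-57535468), Mccc1 (chr3:35959312-36000678), Mccc2 (chr13:99948530-100015639) and Hibadh (chr6:52546228-52640389). Some members overlap other annotated genes. Bckdha and Acadsb overlap B3gnt8 and Fgfr2 on the opposite strand, and antisense genes overlap Bcat2 (0610005C13Rik), Bckdhb (Gm46124) and Mccc1 (Gm15952 and Mccc1os). Small noncoding genes and pseudogenes lie within several members, while Mccc2 and Ivd overlap none. The library kit kept the strand, the strand setting of the counting was not stated, and the part of such reads in the values was not tested.

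The members other than Ppm1k varied together from mouse to mouse. Over the 16 libraries, Pearson's r between log2 values was 0.32 (Dbt with Mccc1) to 0.95 (Bckdhb with Hibadh) in the 36 pairs without Ppm1k, with a median of 0.83. In the 9 pairs with Ppm1k it lay between −0.46 and −0.08. Set against the mean of the other 9, each member except Ppm1k reached 0.65 (Mccc1) to 0.94 (Bckdhb), and Ppm1k was at −0.28. These correlations are descriptions over libraries that differ in group and in cell content. Ppm1k was highest in CON-LFD replicate 3 (1961) and lowest in DIO-HFD replicate 3 (783), which were among the libraries with the most and the fewest B cell markers (summed counts 62143 and 958). Per library its DIO-VSG values of 1704, 1575, 1531 and 1401 were the most even of the 4 groups.

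The kinase that opposes Ppm1k, Bckdk, had lower fitted values in DIO-HFD, as had the subunits of the complex. Bckdk was at 3362, 3873, 2317 and 3352 in CON-LFD, 1869, 2479, 2292 and 2499 in DIO-HFD, 2709, 2987, 2892 and 3056 in DIO-LFD and 2453, 2222, 3090.4 and 2541 in DIO-VSG. Its difference was −0.48 in DIO-HFD relative to CON-LFD (SE 0.15, limma adjusted P = 0.242) and 0.36 between DIO-LFD and DIO-HFD (SE 0.15, limma adjusted P = 0.534). The log2 ratio of Ppm1k to Bckdk within a library was −1.26 ± 0.69 (SD, n = 4) in CON-LFD, −0.95 ± 0.57 in DIO-HFD, −1.17 ± 0.26 in DIO-LFD and −0.72 ± 0.25 in DIO-VSG. The DIO-VSG and DIO-LFD ratios differed by 0.45 (exact two-sided permutation P = 0.0571, adjusted over 18 ratio tests 0.514), where 4 against 4 libraries allow no P value below 0.0286. The log2 ratio of Bckdha to Bckdhb was steady, with group means from 1.07 to 1.15 and no exact permutation P value below 0.543 (n = 4 per group). That of Mccc1 to Mccc2 was 0.87 ± 0.14 in CON-LFD and 0.54 ± 0.25 in DIO-HFD (exact permutation P = 0.0857, adjusted 0.514). It was 0.91 ± 0.18 in DIO-VSG, a difference of 0.37 from DIO-HFD with the same exact permutation P value of 0.0857 (adjusted 0.514). In DIO-LFD replicate 1 it was −0.47, while the other 3 libraries of that group lay between 0.88 and 1.17.

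**Figure D3:**
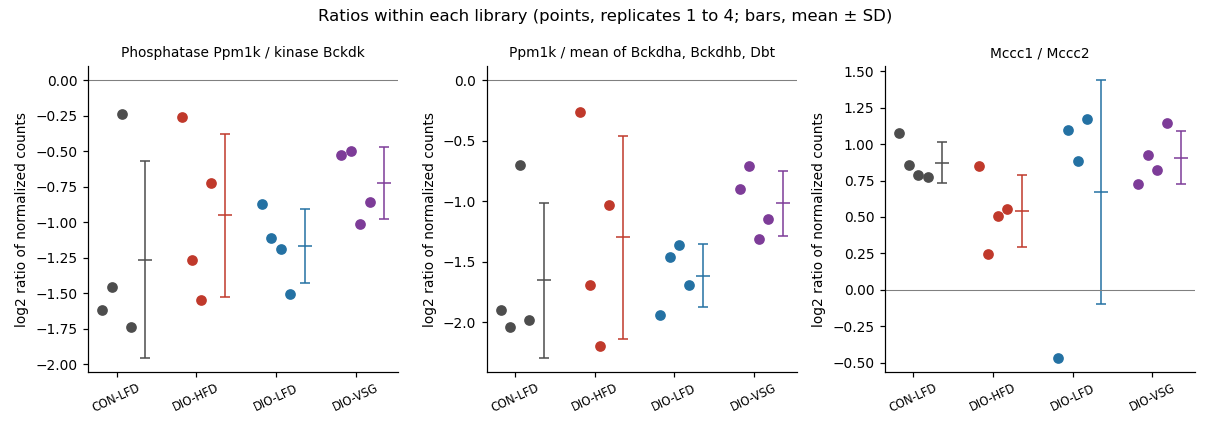
Log2 ratios of normalized counts within each library (vertical axes) for Ppm1k to Bckdk, Ppm1k to the mean of Bckdha, Bckdhb and Dbt, and Mccc1 to Mccc2, with points for replicates 1 to 4 of each group from left to right and bars for mean ± SD. CON-LFD replicate 3 and DIO-HFD replicate 1 have the highest Ppm1k to Bckdk ratios of the 16 libraries (−0.24 and −0.26), and DIO-LFD replicate 1 is the only library with more Mccc2 than Mccc1.

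Other genes of the pathway were read from a list of 17. In DIO-HFD relative to CON-LFD, 15 of the 17 were lower, 11 of them at an unadjusted P value below 0.05 and 0 after adjustment (smallest limma adjusted P = 0.215), with a median of −0.52. The difference was −0.53 for Hsd17b10 (isoleucine route), −0.72 for Echs1 (a hydratase of several routes), −0.71 for Pcca (propionyl-CoA carboxylase) and −0.45 for Auh (leucine route), with limma adjusted P values from 0.215 to 0.263. Slc25a44, the mitochondrial carrier of branched-chain amino acids, was at 4294, 4960.4, 3340.3 and 3876 in CON-LFD and at 2332, 3086, 2999 and 2919 in DIO-HFD. Its groups did not overlap (−0.53, SE 0.15, limma adjusted P = 0.220). From DIO-HFD to DIO-LFD, 15 were higher, 7 at an unadjusted P value below 0.05, among them Echs1 (0.84) and Hsd17b10 (0.48). In DIO-VSG relative to DIO-LFD all 17 were lower, 2 at an unadjusted P value below 0.05, among them Hsd17b10 (−0.34). In DIO-VSG relative to CON-LFD, 15 were lower, 5 of them at an unadjusted P value below 0.05. Between DIO-VSG and DIO-HFD, 15 were higher, none at that level, and Oxct1, which activates acetoacetate, was lower (−0.54, unadjusted P = 0.0434, limma adjusted P = 0.371).

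Bcat1, the cytosolic transaminase, did not share the pattern of Bcat2. It was at 496, 274, 344 and 352 in CON-LFD and at 318, 987, 2682 and 486 in DIO-HFD, a spread within DIO-HFD wider than the difference between the groups (1.16, SE 0.60, limma adjusted P = 0.437). Klf15, a transcription factor known to act on amino acid catabolism, was at 2835, 3136, 2644 and 2969 in CON-LFD, 953, 1488, 1601 and 2139 in DIO-HFD, 3147, 3137, 1891 and 1815 in DIO-LFD and 1831, 2178, 1472 and 1369 in DIO-VSG. Neither DIO-HFD nor DIO-VSG overlapped with CON-LFD, and the differences were −0.96 (SE 0.24, limma adjusted P = 0.186) and −0.78 (SE 0.24, limma adjusted P = 0.268). Of 5 transporters that bring these amino acids into cells, 4 were higher in DIO-HFD than in CON-LFD, 1 of them at an unadjusted P value below 0.05, and 1 was lower at that level. Slc7a8, a neutral amino acid exchanger, was at 1381, 3739, 4233 and 1309 in DIO-HFD and at 645, 1122, 341 and 738 in DIO-VSG, with no overlap (−1.82, SE 0.48, limma adjusted P = 0.246).

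Whether the pattern of the members was particular to branched-chain amino acid breakdown was read beside 16 other mitochondrial genes, chiefly of the citric acid cycle and of protein import and folding. In DIO-HFD relative to CON-LFD 15 of these 16 were lower, 12 at an unadjusted P value below 0.05, and their median of −0.53 was close to the members' −0.58. Between DIO-LFD and DIO-HFD their median was 0.40 (members 0.50). In DIO-VSG relative to DIO-HFD all 16 were higher with a median of 0.30 (members 0.11), and relative to DIO-LFD their median was −0.07 (members −0.33). The member score minus the score of these genes was 0.06 ± 0.21 (SD, n = 4) in CON-LFD, 0.03 ± 0.16 in DIO-HFD, 0.10 ± 0.24 in DIO-LFD and −0.19 ± 0.22 in DIO-VSG, so that the spread between mice was as wide as the group means. No P value is given for the difference between these lists. Among 11042 genes with a mean of at least 500 normalized counts, those most like the members' mean over the 16 libraries were Aldh6a1 (r = 0.96), Sh3glb2, Hsd17b10, Bag4, L3hypdh, Csad, Arl4a, Ccbl2, Clpp and Gcdh (0.94). Aldh6a1 and Hsd17b10, of ranks 1 and 3, belong to the list of other pathway genes.

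Marker genes of the cell types in the tissue were read beside the members. A score, the mean over a list of each gene's log2 deviation from its mean over the 16 libraries, was 0.28 ± 0.23 (SD, n = 4) for the members in CON-LFD, −0.30 ± 0.33 in DIO-HFD, 0.17 ± 0.21 in DIO-LFD and −0.16 ± 0.15 in DIO-VSG. The adipocyte marker score was 0.24 ± 0.39, −0.25 ± 0.72, 0.23 ± 0.33 and −0.22 ± 0.22 in the same order, and 11 of 12 adipocyte markers were lower in DIO-HFD than in CON-LFD, 1 of them at an unadjusted P value below 0.05. Member minus adipocyte scores were 0.04 ± 0.23, −0.04 ± 0.41, −0.06 ± 0.15 and 0.06 ± 0.17. With the adipocyte score as a covariate, a choice made after seeing the data, the members' median was −0.26 in DIO-HFD minus CON-LFD, 0.17 in DIO-LFD minus DIO-HFD, −0.07 in DIO-VSG minus DIO-LFD and −0.21 in DIO-VSG minus CON-LFD, and 5 members were below an unadjusted P value of 0.05 in DIO-HFD minus CON-LFD, as were 17.4% of genes. Since the members are themselves expressed in adipocytes, that score and the outcome share a source.

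B cell markers differed between groups as well. All 7 were higher in DIO-VSG than in CON-LFD, each at an unadjusted P value below 0.05 (median 4.02). All 7 were also higher in DIO-VSG than in DIO-LFD (median 1.22), 0 of them at that level. None of the 7 was at 3 or fewer counts in any library. The member score was highest in CON-LFD replicate 2 (0.57), which had the lowest B cell sum (237), and lowest in DIO-HFD replicate 1 (−0.79), which had the highest (82708). The same 2 libraries also had the highest and lowest scores of the thermogenic adipocyte markers (3.45 and −3.03) and of the other mitochondrial genes (0.77 and −0.65). DIO-HFD replicates 2 and 3, with low B cell sums of 2816 and 958, had member scores of −0.18 and −0.07, below the 2 CON-LFD libraries of low B cell sum (0.57 and 0.27). They were also below these 2 in adipocyte score (0.16 and 0.33 against 0.51 and 0.53) and thermogenic score (−1.09 and −1.45 against 3.45 and 0.41). What set these libraries apart was not tested. When the B cell score entered the fit as a covariate (chosen after seeing the data), the median was −0.45 in DIO-HFD minus CON-LFD and 0.65 in DIO-LFD minus DIO-HFD. In the same fit 8 members were below an unadjusted P value of 0.05 in DIO-LFD minus DIO-HFD (15.8% of genes) and 4 in DIO-VSG minus DIO-HFD (10.2% of genes). Thermogenic adipocyte markers, all 9 lower in DIO-HFD than in CON-LFD (6 at an unadjusted P value below 0.05), had summed counts of 2946 to 64677 in CON-LFD, 713 to 2115 in DIO-HFD, 4413 to 11147 in DIO-LFD and 1449 to 44395 in DIO-VSG. Skeletal muscle markers summed to 2123 to 29183 in CON-LFD, 822 to 3149 in DIO-HFD, 1329 to 128771 in DIO-LFD and 405 to 20944 in DIO-VSG. The highest sums in CON-LFD, DIO-LFD and DIO-VSG each came from 1 library, and the next highest were 4076, 1777 and 2880. All 8 muscle markers were lower in DIO-HFD than in CON-LFD, 1 at an unadjusted P value below 0.05. T cell markers summed to 976 to 21895 in CON-LFD and to 19410.5 to 29183 in DIO-VSG, where all 7 were higher (median 2.75), 5 at an unadjusted P value below 0.05. Macrophage marker scores were −0.09 ± 1.00 (SD, n = 4) in CON-LFD, 0.47 ± 0.12 in DIO-HFD, 0.07 ± 0.42 in DIO-LFD and −0.45 ± 0.81 in DIO-VSG. Relative to DIO-HFD all 7 macrophage markers were lower in DIO-LFD and in DIO-VSG, 1 at an unadjusted P value below 0.05 in each, and 6 of 7 were higher in DIO-HFD than in CON-LFD, 1 at that level. All 8 mammary epithelial markers were lower in DIO-HFD than in CON-LFD, 3 at an unadjusted P value below 0.05 (median −0.70), and 5 of 8 were higher in DIO-LFD than in DIO-HFD, all 5 at that level (median 0.65). Their summed counts were 47352 to 92541 in CON-LFD, 30403.5 to 65670.4 in DIO-HFD, 47141 to 125123 in DIO-LFD and 46903 to 72272 in DIO-VSG. In DIO-VSG all 8 were lower than in DIO-LFD (median −0.37), 0 at an unadjusted P value below 0.05, and 6 of 8 were lower than in CON-LFD (median −0.55), 1 at that level. For the part of these cell types in the members' differences, no test is given beyond the covariate fits.

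**Figure D4:**
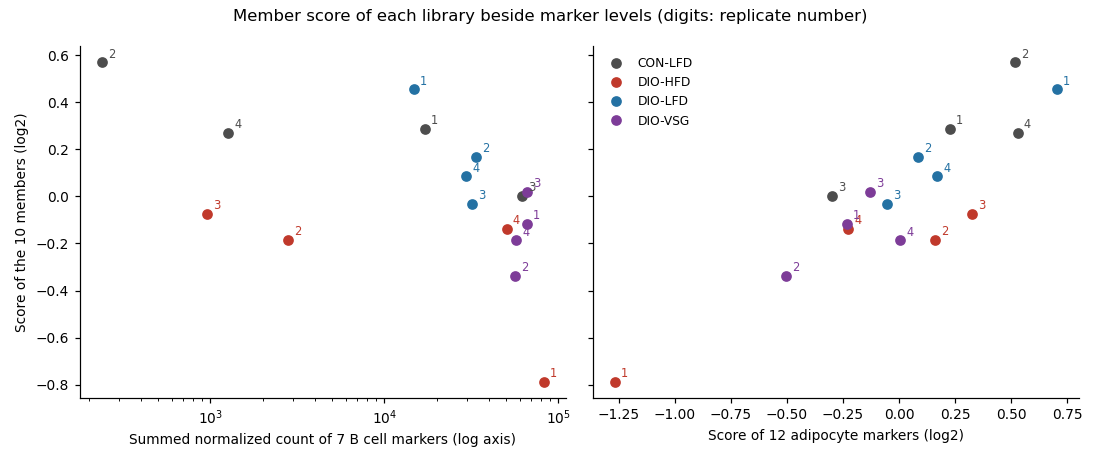
Score of the 10 members in each library (vertical axis, log2) against the summed normalized count of 7 B cell markers (left, log axis) and the score of 12 adipocyte markers (right, log2), with 1 point per library, colored by group and numbered by replicate. DIO-HFD replicate 1 lies at the lowest member score (−0.79), the highest B cell sum (82708) and the lowest adipocyte score (−1.27), and the other 15 libraries lie between −0.34 and 0.57 on the vertical axis.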

How the data were processed

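RNA-Seq of mammary adipose tissue was analysed from the table of gene values the authors deposited. Per the study's methods, stranded total RNA libraries were aligned with STAR to GRCm38, quantified with salmon against a Gencode annotation (release not stated) and normalized with DESeq2; the submitters' processing notes instead name TopHat2 2.0.7, HTSeq 0.5.3p9, DESeq2 and mm10. The values the authors deposited were on a log2 scale from a variance-stabilizing transformation (5.36 to 21.8), whereas normalized counts had been planned for, so the transformation was inverted. Dividing by each library's step then gave whole reads for 100.0% of values (tolerance 0.05 reads), library totals of 46907377 to 57610899 and size factors of 0.904 to 1.22. Columns without a sample numbered 0.

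The values tested were log2(normalized count + 1), a scale that understates changes of low genes. A single limma-trend model (limma version 3.58.1 in R version 4.3.3) held the 16 libraries with group as the only term and the 21218 genes that reached 10 normalized counts in 4 or more libraries. It was tested on simulated data only with changes larger than those it fitted for the members. Recovery of differences of their size was not tested. Each library carries its own animal number in its label, and P values measure the spread between these libraries. No replicate pair agreed within sampling noise (chi-square per gene at least 73.2). Ratios, chosen after the values had been seen, were compared by exact permutation tests (SciPy 1.17.1). The adjustment covered only the ratios whose tests are reported. The 10 members, the marker and pathway lists and the motifs were chosen with earlier results of these data known. All members were named; of other pathway and transporter genes, the 8 with the smallest unadjusted P value (1 is not reported here), plus Bcat1, Bckdk, Slc25a44 and Klf15; Oxct1 was named after its value was seen. Gene models were GENCODE M21 (GRCm38). Alternatives were another pseudocount (5), the deposited log2 values, no filter, a replicate block, the 8 libraries alone, library weights, quantile and upper-quartile scaling and each library left out. Marker covariates and the joint omission of the first DIO-HFD and DIO-LFD libraries were added after seeing the data.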

Additional observations from a re-analysis of the deposited data

Results flagged for a closer look

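Of 40 sets of 4 libraries (10 members in 4 groups) tested for a library far from the others, 1 was found, where chance gives about 1 in 20. Dbt was at 5950.5 normalized counts in DIO-LFD replicate 1, against 2428 to 2538 in the other 3 DIO-LFD libraries, and the gap took 0.95 of the range of the group, above Dixon's 95% critical value for 4 samples. The same library was the highest of its group for Bcat2 only narrowly, at 3393 against 3003, and clearly for Bckdhb (4443 against 2936) and Mccc2 (4582 against 2910.4), and it was the lowest of its group for Mccc1 (3313 against 5154 to 6565). It also had the highest adipocyte marker sum of the 16 libraries (1788460).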

How the results depend on the processing

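The direction of the members' median in DIO-HFD minus CON-LFD (main value −0.58), DIO-LFD minus DIO-HFD (0.50), DIO-VSG minus DIO-LFD (−0.33) and DIO-VSG minus CON-LFD (−0.49) was kept under every alternative run. That of DIO-VSG minus DIO-HFD (0.11) turned to −0.041 without DIO-HFD replicate 1, alone or with the other first library, and that of DIO-LFD minus CON-LFD (−0.09) to 0.0023 without CON-LFD replicate 2 and 0.11 with the B cell score. Library weights, which ranged from 0.222 (DIO-HFD replicate 3) to 10.9 (DIO-HFD replicate 4), gave 7 members past the adjusted threshold in DIO-HFD minus CON-LFD, 1 (Mccc1) in DIO-LFD minus DIO-HFD and 5 in DIO-VSG minus CON-LFD, where equal weights gave 0; all genes past it then numbered 4196, 1811 and 4226. A fit of the 8 libraries alone gave 1 member (Ivd) in DIO-VSG minus DIO-LFD among 1533 genes. Medians moved beyond 1 SD between replicates to −0.19 in DIO-VSG minus CON-LFD with the B cell score as covariate, to 0.17 in DIO-LFD minus DIO-HFD, −0.068 in DIO-VSG minus DIO-LFD and −0.21 in DIO-VSG minus CON-LFD with the adipocyte score, and to 0.16 in DIO-LFD minus DIO-HFD with both first libraries left out. The cause was not tested. With 1 library left out, members called ranged from 0 to 2 in DIO-HFD minus CON-LFD and from 0 to 1 in DIO-VSG minus CON-LFD (both highest values without CON-LFD replicate 3, where 136 and 878 genes were called in all), and were 0 in the other comparisons.

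Members at an unadjusted P value below 0.05 numbered 8 in DIO-HFD minus CON-LFD and 4 in the fit of its 8 libraries (7.94% of all genes), 5 with the adipocyte score (17.4%) and 5 without both first libraries (11.9%). In DIO-VSG minus DIO-LFD the count of 2 became 5 with 8 libraries (25.3%) and 4 with library weights (25.9%); in DIO-VSG minus CON-LFD the count of 5 became 8 with library weights (37.4%), 8 without both first libraries (22.9%) and 1 with the B cell score (4.89%); in DIO-LFD minus DIO-HFD the count of 3 became 8 with the B cell score (15.8%). In DIO-VSG minus DIO-HFD the count of 0 became 4 with the B cell score (10.2%), 1 with the adipocyte score (26.7%), 1 without both first libraries (28.5%) and 1 without DIO-HFD replicate 1 (27.6%) or 4 (15.1%), and in DIO-LFD minus CON-LFD it became 1 with library weights (17%), 1 with the adipocyte score (11%) and 2 without both first libraries (6.56%).

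Signs turned only for values that passed no adjusted threshold. In DIO-VSG minus DIO-HFD, library weights gave Bcat2 −0.18, Dbt −0.10, Mccc2 −0.072 and Ivd −0.12. The deposited log2 values gave Mccc2 −0.0014, the B cell score gave Acadsb 0.21, and the adipocyte score gave Dbt −0.022 and Mccc2 −0.027. Without both first libraries, Bcat2 was −0.041, Bckdha −0.036, Bckdhb −0.037, Dbt −0.19, Mccc2 −0.25, Ivd −0.041 and Hibadh −0.11. In DIO-LFD minus DIO-HFD, Ppm1k was −0.24 with library weights, Acadsb was −0.013 with the adipocyte score, and Dbt and Acadsb were −0.13 and −0.031 without both first libraries. With the adipocyte score, Bckdhb and Hibadh were 0.0023 and 0.037 in DIO-VSG minus DIO-LFD. Library weights gave Ppm1k 0.31 in DIO-HFD minus CON-LFD and 0.075 in DIO-LFD minus CON-LFD. With the B cell score, DIO-VSG minus CON-LFD was 0.027 for Bckdha, 0.028 for Bckdhb, −0.12 for Ppm1k and 0.015 for Hibadh, and DIO-LFD minus CON-LFD was 0.070 for Bcat2, 0.21 for Bckdha, 0.22 for Bckdhb, 0.14 for Dbt, 0.15 for Mccc2, 0.078 for Ivd and 0.16 for Hibadh.

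With 1 library left out, DIO-VSG minus DIO-HFD ranged from −0.041 to 0.22 for Bcat2, −0.036 to 0.31 for Bckdha, −0.037 to 0.31 for Bckdhb, −0.19 to 0.11 for Dbt, −0.25 to 0.12 for Mccc2, −0.041 to 0.21 for Ivd, −0.28 to 0.088 for Acadsb and −0.11 to 0.25 for Hibadh. Ppm1k ranged from −0.31 to 0.026 in DIO-HFD minus CON-LFD and from −0.056 to 0.28 in DIO-LFD minus DIO-HFD. In DIO-LFD minus CON-LFD the ranges were −0.15 to 0.11 for Bcat2, −0.28 to 0.12 for Bckdha, −0.21 to 0.11 for Bckdhb, −0.39 to 0.042 for Dbt, −0.16 to 0.16 for Ppm1k, −0.14 to 0.028 for Ivd and −0.28 to 0.0033 for Hibadh.

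The deviations of same-numbered replicates correlated at r from −0.61 to 0.53. Differently numbered replicates were not compared, so these values do not settle whether the numbers pair the libraries. A replicate block left 0 members past the adjusted threshold in each of the 6 comparisons, 6 members at an unadjusted P value below 0.05 in DIO-HFD minus CON-LFD (12% of all genes) and the medians at −0.58, 0.11, 0.50, −0.33, −0.49 and −0.09, and it moved the number of genes called in DIO-HFD minus CON-LFD from 8 to 1. The spread between 4 mice per group, not depth, set the precision.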
